A study of Caenorhabditis elegans with 2 samples.

Results

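The translation initiation and elongation factor genes of Caenorhabditis elegans were examined for regions bound by the zinc finger protein ZIM-3. The rule went by name: it took the protein-coding genes whose name begins with eef-, eif-, iff-, ife-, ifg- or inf-, together with egl-45, which encodes an eIF3 subunit. This rule gave 41 of the 19973 protein-coding genes on the nuclear chromosomes. Of these, 33 were classed as initiation factors (eif-, ife-, ifg-, inf- and egl-45) and 6 as elongation factors (eef-). The pair of iff- genes, which encode eIF5A, was kept apart because eIF5A is named as an initiation factor but acts mainly in elongation. The classes follow names only: eif-6 and eif-4A3 count as initiation factors, although eIF6 is best known from the biogenesis of the large ribosomal subunit and eIF4A3 from the exon junction complex.

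Initiation factors bring the initiator tRNA, the mRNA and the small ribosomal subunit together at a start codon. Elongation factors then carry aminoacyl-tRNA to the ribosome (eEF1) and move the ribosome along the mRNA (eEF2), while eIF5A relieves ribosomes that stall. ZIM-3 is known for its part in meiosis, where it binds the pairing centres of I and IV.

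ZIM-3 carrying GFP and FLAG at its C-terminus was expressed from the transgene wgIs581 in strain OP581, with unc-119(tm4063) as the background allele, and was precipitated with an antibody against GFP. Both biological replicates were whole young adults, males and females pooled, taken 54.5 h after synchronised starved L1 larvae were started, so signal from germline and somatic cells could not be separated. There was 1 group, and no untagged or untreated sample was analysed here, so regions at which any tagged protein or the antibody alone would give signal cannot be told apart from those bound by ZIM-3. Read depth was unknown, because the files hold regions and not reads.

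Each replicate had a deposited list of 30000 regions that mixes peaks with background, and a list of the same size was made by the authors from the reads of both replicates together (the pooled list). A further list of 906 regions had passed the authors' reproducibility filter, the irreproducible discovery rate (IDR). The authors' signal value of a region ran from 50.5 to 818.0 in the pooled list, from 38.5 to 611.1 in replicate 1 and from 15.1 to 239.0 in replicate 2, so signals were compared only within a list. A gene's score was the highest signal among regions whose summit lay within 1 kb of its annotated start. Its percentile was the share of protein-coding genes with a lower score in the same list, and it was 0 for a gene with no such region. Distances are given along the gene, negative upstream of the start. Because only tagged animals were analysed and genes are not replicates of one another, counts and medians are set beside those of all protein-coding genes and no test was made.

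The stretches below are shown because they lie at the summits of members that passed the IDR filter. They were read from the RefSeq genome sequence of the WBcel235 build in the direction of the gene. The summit beside iff-2, at chrII:8561380-8561480 on the minus strand, lay between genes, held 60.4% G and C and is given wholly in lower case because it contained none of the motifs searched. At eif-2Bgamma, chrII:6968290-6968390 on the minus strand, the capitals mark CTGAAA, which is TTTCAG, the splice acceptor consensus of the worm, on the opposite strand. The summit of eef-1A.1, in a coding exon at chrIII:6971370-6971470 on the minus strand, is set against the like-placed stretch of its near-identical copy eef-1A.2, at chrX:7823834-7823934 on the plus strand, and the capitals mark the bases at which the copies differ.
iff-2: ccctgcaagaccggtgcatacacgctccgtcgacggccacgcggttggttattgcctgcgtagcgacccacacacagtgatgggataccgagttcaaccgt
eif-2Bgamma: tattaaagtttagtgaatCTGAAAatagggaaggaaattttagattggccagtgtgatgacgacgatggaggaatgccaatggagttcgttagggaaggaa
eef-1A.1: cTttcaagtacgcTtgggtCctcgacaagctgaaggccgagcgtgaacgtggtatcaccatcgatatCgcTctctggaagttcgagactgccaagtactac
eef-1A.2: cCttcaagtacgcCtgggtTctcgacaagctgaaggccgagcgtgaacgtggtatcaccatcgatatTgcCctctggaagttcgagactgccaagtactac

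The copies of eEF1A were identical at 96 of these bases, with 5 mismatches and a longest shared run of 47 bases. The sources used here do not say how the authors placed reads that match both genes, so the values of eef-1A.1 and eef-1A.2 are uncertain. The nearest pooled summit to the matching stretch of eef-1A.2 lay 259 bp away from it. Reads from one copy placed on the other were not tested. Summit stretches of some other members also had partial matches elsewhere in the genome. The most were at eif-6, with 19 (the longest at 72.4% identity), then eef-2 with 5, inf-1 with 3 and eif-2A with 2. Their part in the signal was not tested.

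Translation factor genes lay near listed regions more often than protein-coding genes did as a whole, and 4 of them had a region that passed the authors' filter. In the pooled list 29 of the 41 genes had a region within 1 kb of the start, 70.7%, against 47.6% of all protein-coding genes. Replicate 1 had one at 25 of them, against 47.6% of all genes, and replicate 2 at 29, against 46.9%. There were 20 members with a region in both replicate lists, 48.8%, where all genes gave 33.1%, while 5 had one only in replicate 1, 9 only in replicate 2 and 7 in neither.

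The IDR filter was passed at 4 members, iff-2, eef-2, eif-2Bgamma and eef-1A.1, which is 9.76% of the set beside 2.5% of all genes. Of these, 3 were in the top 5% of genes in both replicates (eef-1A.1, eef-2 and eif-2Bgamma), where all genes gave 2.76%. Without summits near small RNA genes 1 member was left there, eef-2, beside 2.49% of all genes, a share near the background. With all summits kept, 1 of the 33 initiation factors had an IDR region, 3.03%, and 1 was in the top 5% of both replicates. Both shares were near those of all genes. A pooled percentile of 90 or more was reached by 14 members, 34.1% of them, beside 10% of all genes. The median percentile over the 41 genes was 69.0 in the pooled list, 76.4 in replicate 1 and 72.6 in replicate 2. Over all protein-coding genes it was 0 in each list, since fewer than 50% of genes had any region.

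**Figure D1:**
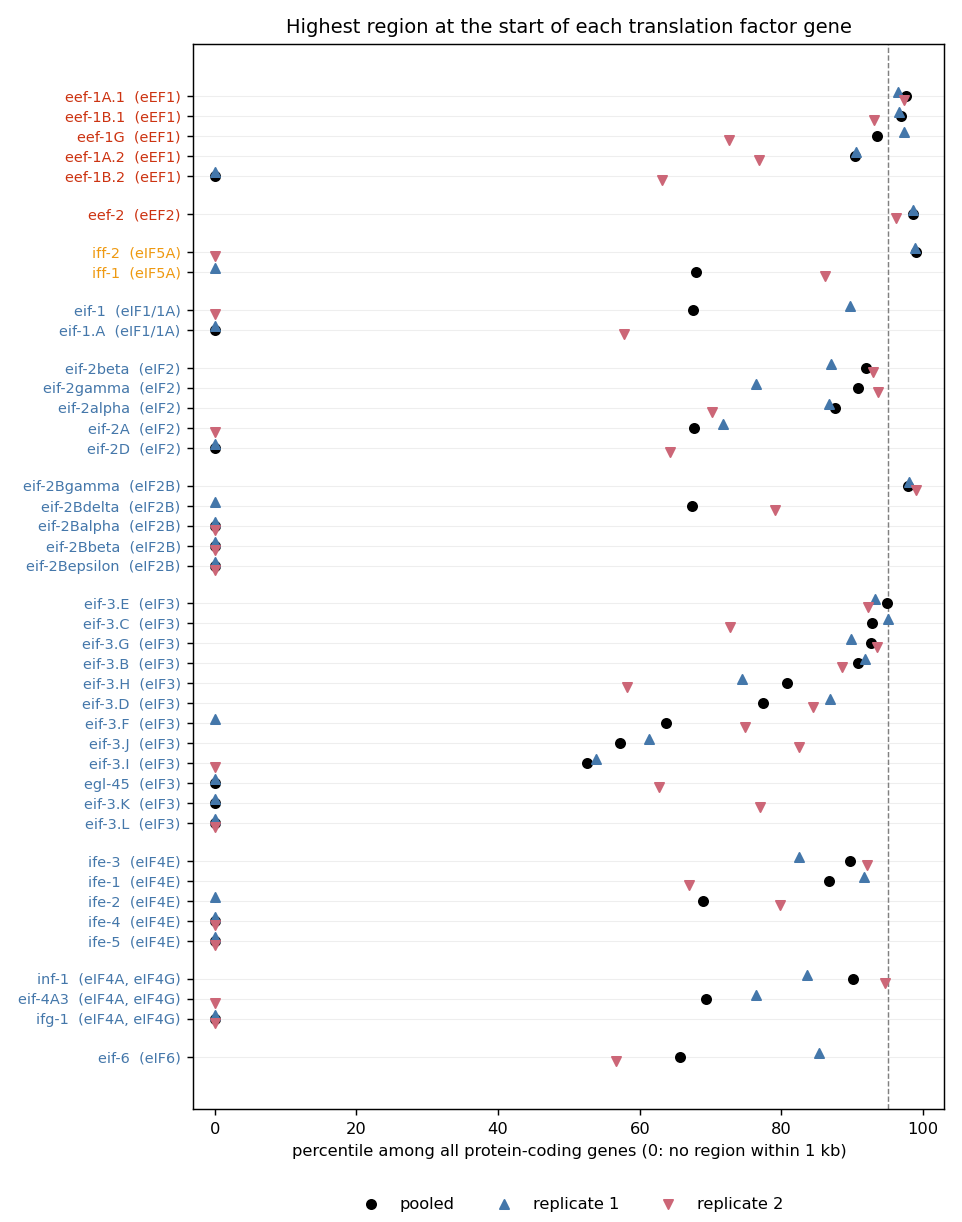
Percentile of each of the 41 genes among protein-coding genes (x axis, 0 to 100) in the pooled list and in replicates 1 and 2, with genes in rows grouped by role and points at 0 for genes with no region within 1 kb of the start. The dashed line is percentile 95. Elongation factors other than eef-1B.2 sit to the right in replicate 1 and at 72.6 or above in replicate 2, iff-2 is high in the pooled list and replicate 1 and at 0 in replicate 2, and 7 initiation factors are at 0 in all 3 lists.

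Elongation factor genes had higher percentiles than initiation factor genes in each list. The median of the 6 elongation factors was 95.1 in the pooled list, 96.5 in replicate 1 and 85.0 in replicate 2. That of the 33 initiation factors was 67.5, 71.8 and 66.9 in the same lists. The difference of medians was therefore 27.6 in the pooled list, 24.7 in replicate 1 and 18.0 in replicate 2, with an SD of 4.71 between the replicates.

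The classes overlapped, since both held genes at percentile 0 in the pooled list and both held genes above 97. Single genes also varied between replicates. Among the 20 members with a region in both lists, the percentiles of the replicates differed by a median of 10.3, with a range of 0.911 to 28.7, and the same median over the 6607 genes in both lists was 8.88. These values leave out the members with a region in 1 replicate only. The size of the class difference also rested on the distance allowed: it was 96.1 for summits within 500 bp of the start, where the initiation median fell to 0, and 13.8 within 2 kb.

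The genes of eEF1 were led by eef-1A.1 (WBGene00001168, chrIII:6970026-6971712, minus strand), which encodes the GTPase that delivers aminoacyl-tRNA. Its pooled signal was 145.3, rank 819, with the summit at 293 bp inside a coding exon. Replicate 1 gave 95.8 (rank 1337) and replicate 2 gave 42.3 (rank 990), so both placed it in the top 5% of genes, at percentiles 96.4 and 97.3. The replicate 1 summit lay 145 bp from the pooled one, at 148 bp, and 412 bp from the annotated miRNA gene mir-5549, while the pooled summit had no small RNA gene within 500 bp. Without summits within 500 bp of small RNA genes eef-1A.1 was no longer in the top 5% of both replicates but kept its IDR region. The pooled list had 5 regions within 1 kb of this start.

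The copy eef-1A.2 (WBGene00001169, chrX:7823654-7825769, plus strand) was lower in every list. Its pooled signal was 95.05 at 489 bp, rank 4277, with 72.9 in replicate 1 and 22.1 in replicate 2. The replicates placed it at percentiles 90.6 and 76.8. Both copies thus had a region inside the coding sequence, and that of eef-1A.1 ranked higher.

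The exchange subunits of eEF1B, which reload eEF1A with GTP, also differed from each other. At eef-1B.1 (WBGene00018846, chrIII:7972382-7973386, minus strand) the pooled signal was 131.2, rank 1155, at 483 bp in a coding exon. Replicate 1 gave 97.0 and replicate 2 gave 32.6, percentiles 96.6 and 93.1, with summits 7 and 52 bp from the pooled one. Both replicates thus placed it high, but it stayed below the IDR list. Its relative eef-1B.2 (WBGene00012768, chrIV:15037331-15039551, plus strand) had no pooled region within 1 kb, the nearest being at 1144 bp. Replicate 2 alone gave it a region, with a signal of 17.7 and rank 21851, under the median of that list (20.7).

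The replicates differed most, among the elongation factors in both lists, at eef-1G (WBGene00008920, chrV:10965719-10967922, plus strand), the structural gamma subunit of eEF1B. Replicate 1 gave 103.7 (rank 980, percentile 97.3) at 652 bp, and the pooled list 106.3 (rank 2673) at 655 bp. Replicate 2 gave only 20.6, rank 15335, with the summit at −19 bp, and its region nearest to the pooled summit lay 395 bp from it. The inner region of eef-1G was therefore matched in 1 replicate only. The weaker region at its start was in every list, with 72.5 at −24 bp in the pooled list and 47.5 at −17 bp in replicate 1. The annotated snoRNA gene F17C11.15 lay 324 bp from the pooled summit of the inner region, and its part in the signal was not tested.

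The translocase gene eef-2 (WBGene00001167, chrI:9163531-9166952, plus strand) had a region at its start in both replicates. The pooled summit stood at −7 bp with a signal of 174.0, rank 463, and the region was in the IDR list. Replicate 1 gave 131.7 (rank 449) at −22 bp and replicate 2 gave 38.4 (rank 1503) at −30 bp. These are percentiles 98.6 and 96.2, with summits 15 and 23 bp from the pooled one. It was the only member to stay in the top 5% of both replicates when summits near small RNA genes were left out.

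**Figure D2:**
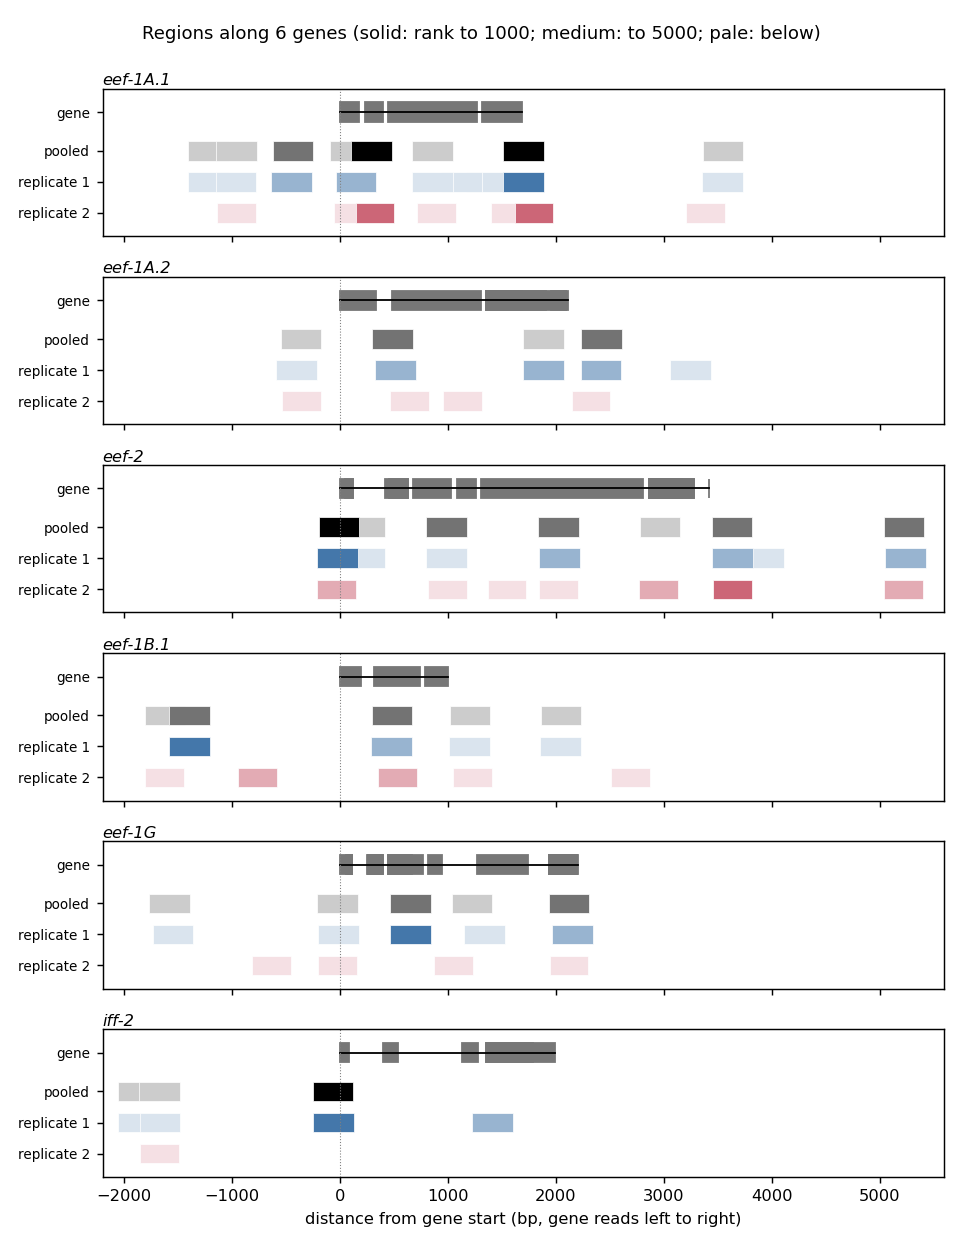
Regions of the pooled list and of each replicate along eef-1A.1, eef-1A.2, eef-2, eef-1B.1, eef-1G and iff-2, by distance from the gene start in bp, with exons as grey boxes and shading by rank (solid to rank 1000, medium to rank 5000, pale below). Solid regions of the pooled list lie at the starts of eef-2 and iff-2 and inside and at the end of eef-1A.1, and iff-2 has no replicate 2 region at its start.

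The member with the highest pooled signal was iff-2 (WBGene00002065, chrII:8559375-8561367, minus strand), the eIF5A gene known from somatic tissues. Its summit at −66 bp had a pooled signal of 194.7, rank 327 and percentile 99.0, and was in the IDR list. Replicate 1 gave 141.8, rank 351, at −63 bp. Replicate 2 had no region within 1 kb of this start, its nearest lying 1606 bp from the pooled summit. Replicate 1 alone thus had the region of iff-2, although the authors' filter kept it.

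The germline eIF5A gene iff-1 (WBGene00002064, chrIII:9745862-9747193, minus strand) showed the opposite case. Replicate 1 had no region within 1 kb, replicate 2 gave 26.5 (rank 6898, percentile 86.2) and the pooled list 63.2 (rank 18021). The pooled summit, at −491 bp, lay in an intron of cdk-1, whose start was nearer. Neither eIF5A gene was therefore seen at its start in both replicates.

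Among the initiation factors, eif-2Bgamma (WBGene00004090, chrII:6965800-6967648, minus strand) alone had an IDR region, 3.03% of them beside 2.5% of all genes. It encodes a subunit of eIF2B, the exchange factor that reloads eIF2 with GTP. The pooled signal was 150.7 with rank 718, replicate 1 gave 115.02 with rank 697, and replicate 2 gave 57.1 with rank 331. Both replicates placed it in the top 5% of genes, at percentiles 97.9 and 99.0. The summit was far from the gene, at −695 bp, in a coding exon of C15F1.5 and 51 bp from the annotated snRNA gene sup-39, although the start of eif-2Bgamma was the nearest of a protein-coding gene. The part of sup-39 in the signal was not tested, and without summits near small RNA genes eif-2Bgamma had no IDR region. The other subunits were low: eif-2Bdelta had a pooled signal of 62.7, and eif-2Balpha, eif-2Bbeta and eif-2Bepsilon had no region within 1 kb in any list.

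The subunits of eIF2, which carries the initiator tRNA, reached intermediate levels. The highest was eif-2beta, with a pooled signal of 100.1 at 99 bp in its 5′ untranslated region, and with 66.2 and 32.3 in replicates 1 and 2. Next came eif-2gamma with 96.4, 54.6 and 33.2 in the pooled list and replicates 1 and 2, but its summit at −786 bp was 11 bp from the start of tbca-1, a tubulin folding cofactor gene. The alpha subunit gene eif-2alpha had 88.2 in the pooled list, with the summit in phb-1, a prohibitin gene. All 3 subunit genes of the eIF2 trimer had regions in both replicates. The alternative factors eif-2A and eif-2D each had a region in 1 replicate only, with eif-2A at 62.9 in the pooled list and eif-2D with none.

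The 12 genes of eIF3, the large scaffold that holds the small subunit, spread from none to high. Of these, 9 had a pooled region, 8 a region in replicate 1 and 10 in replicate 2, with a median pooled percentile of 70.6 and none in the IDR list. The highest, eif-3.E, had 113.7 at −211 bp in the pooled list, 79.6 in replicate 1 and 31.5 in replicate 2. The replicates' summits lay 13 and 3 bp from the pooled one, so both replicates marked the same place.

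The other eIF3 genes above percentile 90 were eif-3.C, eif-3.G and eif-3.B. For eif-3.C the pooled signal was 103.1 at −284 bp, with 87.1 and 20.6 in replicates 1 and 2. For eif-3.G it was 102.7 at 437 bp, with 70.9 and 33.1, and for eif-3.B 96.5 at 579 bp, with 75.7 and 28.0. The first of these was high in replicate 1 only, at percentile 94.99 against 72.7, whereas eif-3.G was near 90 or above in both (89.8 and 93.5). The lowest with a region was eif-3.I at 50.7, close to the floor of the pooled list and nearer to the start of abtm-1. No pooled region lay near egl-45, eif-3.K or eif-3.L.

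Genes of cap recognition and mRNA unwinding were mixed. The eIF4A helicase gene inf-1 had 94.5 at 249 bp in the pooled list, with 61.8 at 254 bp in replicate 1 and 34.7 at 38 bp in replicate 2, percentiles 83.6 and 94.6. Both replicates had regions at both places, replicate 1 also at 24 bp (43.9) and replicate 2 also at 245 bp (28.9). The eIF4G scaffold gene ifg-1 had no region near its start in any list, and eif-4A3 had a pooled signal of 64.4 at a summit nearer to vps-20. Of the cap-binding eIF4E genes, ife-3 was highest with 93.0 in the pooled list, 60.6 in replicate 1 and 31.4 in replicate 2, ife-1 had 86.5 and ife-2 had 64.1. The summit of ife-1 lay in a coding exon of dro-1, whose start was nearer, and the closest replicate 2 region was 980 bp from it. There was no region in any list for ife-4 and ife-5. The start site selection genes eif-1 (62.9) and eif-1.A (none in the pooled list) and the ribosome subunit anti-association factor gene eif-6 (61.2) were below percentile 70 in the pooled list. In replicate 1 eif-1 and eif-6 stood higher, at percentiles 89.7 and 85.4. In replicate 2 eif-1 had no region within 1 kb and eif-6 was at 56.7. The summit of eif-1 lay in the 5′ untranslated region of vps-24, 80 bp from the start of that gene.

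The summits did not gather on one side of the start. Of the 29 members with a pooled region, 15 had the summit upstream and 14 downstream, 48.3%, and for all genes with a region 55.0% were downstream. The elongation factors had 4 of 5 downstream, each in a coding exon of the gene itself, and a median distance of 483 bp, while the initiation factors had 10 of 22 downstream and a median of −115 bp. For 23 of the 29 the member was the protein-coding gene with the nearest start, and for 6 another gene was nearer. A summit of replicate 1 lay within 200 bp of the pooled summit at 25 members, one of replicate 2 at 19, and both at 15. The nearest starts and these matches were not counted over all protein-coding genes, so no excess or lack can be read from them.

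**Figure D3:**
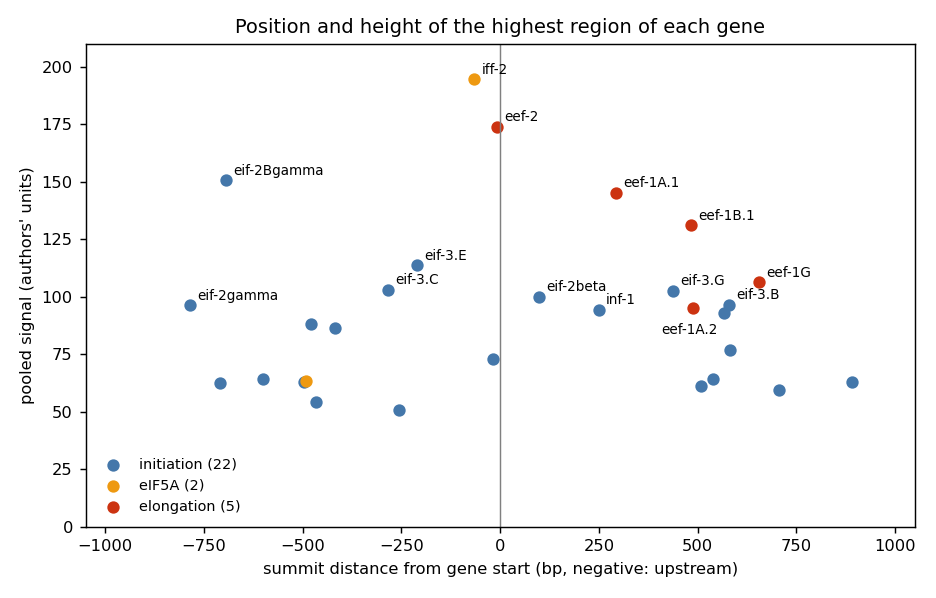
Pooled signal (y axis, the authors' units) against the distance of the summit from the gene start in bp (x axis, negative upstream) for the 29 members with a region. The labelled elongation factors other than eef-2 lie at 293 to 655 bp, and iff-2 and eef-2 are the highest points, at −66 and −7 bp.

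Regions at the 3′ ends of the genes were described after the values were seen. A pooled summit within 500 bp of the annotated end was found at 28 of the 41 genes, beside 33.9% of all protein-coding genes. Of the elongation factors 6 of 6 had one, and of the initiation factors 21 of 33. Some of these summits lay at the start of another gene. That of eef-1B.1 was 21 bp from the start of F54H12.5 and that of eef-1B.2 was 43 bp from hrpu-1. Those of eif-2D and eif-1.A were 7 bp from C25H3.3 and 30 bp from srw-95. For others, such as eef-1A.2 and eef-1G, the member's own start was the nearest. The IDR list held such a summit at 2 members, beside 2.08% of all genes, and 8 members were at percentile 90 or above, beside 9.99%. The median percentile at the end was 95.1 for elongation factors and 71.7 for initiation factors in the pooled list. In replicate 1 these were 94.9 and 72.7, and in replicate 2 they were 94.1 and 0. The 94.1 rested on eef-1B.1 (percentile 94.5) and eef-1B.2 (93.7), whose replicate 2 regions lay inside the genes, at −469 and −342 bp from the end. That of eef-1B.1 was the same region that gave its score at the start, so it is no separate sign of an end.

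At eef-1A.1 the end was stronger than the start. Its pooled signal there was 158.5, rank 615, at 15 bp past the end, with ranks 915 and 254 in replicates 1 and 2, and the summit lay in a coding exon of the next gene, F31E3.12. The end of ife-3 gave 152.4, rank 694, at 321 bp past the end and within a coding exon of idpp-2, with ranks 609 and 708. For eef-2 the end had 129.5 at 213 bp past it, with ranks 1688 and 829. These 3 ends were ranked within the first 1688 regions by both replicates. At eef-1G the end gave 122.1 at −83 bp, with rank 1153 in replicate 1 but 25255 in replicate 2. The replicate 2 region, though weak, was at the same place, at −81 bp, unlike at the summit inside the gene. The annotated snoRNA gene F17C11.14 lay 223 bp from the pooled summit at the end, and its part in the signal was not tested.

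Other genes of translation gave a scale for these values, beside 47.6% of all protein-coding genes with a pooled region and 2.5% with an IDR region. Of the 85 cytosolic ribosomal protein genes, 80 had a pooled region and 24 an IDR region, with a median percentile of 91.3 in the pooled list, 89.7 in replicate 1 and 90.1 in replicate 2. That was below the elongation factors in the pooled list and replicate 1 but above them in replicate 2, and above the initiation factors in each. The 33 aminoacyl-tRNA synthetase genes, whose products charge tRNA, had a median of 64.1 in the pooled list. A pooled region was at 19 of them (57.6%) and an IDR region at 1, ears-2 (signal 232.6, −36 bp), 3.03% and near the share of all genes. Termination and rescue genes had 3 of 5 with a pooled region and a median of 53.1, led by the release factor gene erfa-1 (96.6). Mitochondrial translation factors had 3 of 4 with a median of 62.2, led by tufm-2 (95.3), which encodes an elongation factor. The summits of erfa-1 and tufm-2 were nearer to the starts of gad-1 and exoc-7, and the IDR list held no region at either list.

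Regulators and partners of the factors had 8 of 12 with a pooled region and a median of 64.5. The IDR list held larp-1, which encodes an mRNA-binding protein, with a signal of 194.7 and the start of wip-1 nearer, and efk-1 with 147.2 at −278 bp. The product of efk-1 is the kinase that phosphorylates eEF2. Both efk-1 and eef-2 had IDR regions near their starts, and a link between these regions was not tested. The next highest was the poly(A)-binding protein gene pab-2, with 102.2.

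**Figure D4:**
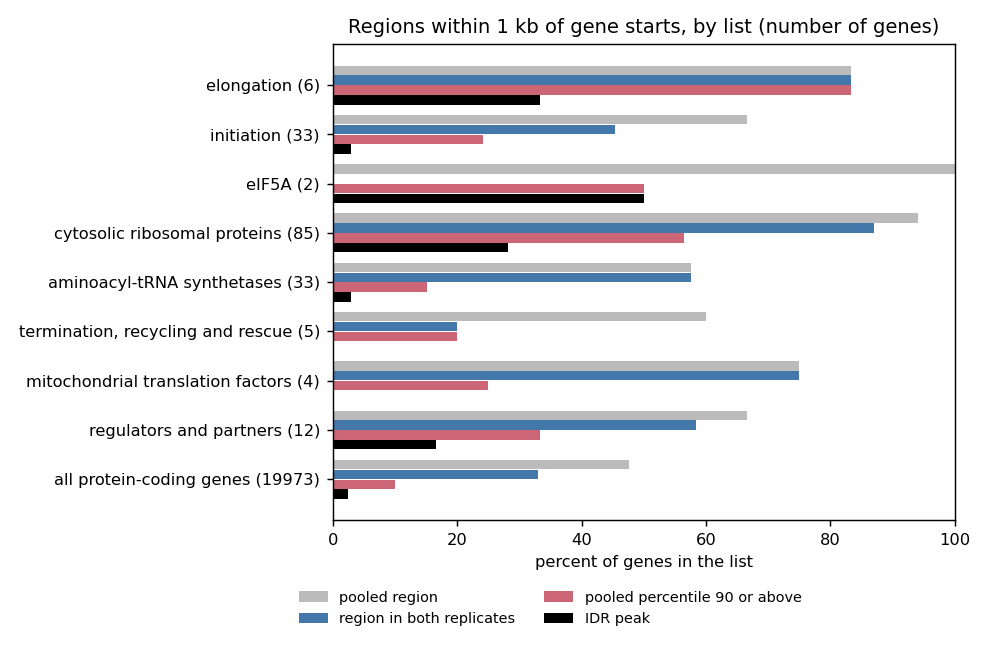
Percent of the genes of each list (x axis, 0 to 100) with a pooled region within 1 kb of the start, with a region in both replicates, at a pooled percentile of 90 or above, and with an IDR peak, as bars, with the number of genes in parentheses. Elongation factors reach 83.3% at percentile 90 or above, initiation factors 24.2%, ribosomal protein genes 56.5% and all protein-coding genes 10%, and the bars of the lists with 2 to 6 genes rest on very few genes.

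The sequence at the summits was searched on both strands in windows reaching 50 bp to either side. The motifs were the splice acceptor consensus TTTCAG, the repeat GAGAGA and the core promoter element TATAAA. The acceptor consensus was present at 10 of the 29 member summits, 34.5%, beside 15.6% of all pooled regions, and in 26 of the 41 members' promoters (250 bp before to 50 bp after the start), 63.4% beside 51.7% of all protein-coding promoters. GAGAGA was at 0 of 29 summits beside 8.23%, and in 14.6% of the promoters beside 21.8%. TATAAA was at 2 summits, 6.9% beside 6.04%, and in 43.9% of promoters beside 37.9%. No motif contains another, and none was found at the pooled summits of the elongation and eIF5A genes. The median G and C content of the member summits was 44.6%, beside 42.6% over all pooled regions.

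By chromosome, members with IDR regions were on I, II and III. There were 12 members on I, 11 of them with a pooled region and 1 with an IDR region, and 2 on IV, eif-1.A and eef-1B.2, neither with a pooled region. Chromosome II held 12 members, 7 with a pooled region and 2 with an IDR region, and III held 8, with 6 and 1. Of 4 members on V and 3 on X, 3 and 2 had a pooled region and none an IDR region.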

How the data were processed

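ChIP-seq lists from 2 biological replicates of 1 group were used on the ce11 assembly. The authors deposited a signal value, a −log10 q-value and a summit offset for each region. Per the deposited file descriptions, lists were made with a control library, not used here. The sources used here do not name the aligner, the peak caller, their versions or the IDR threshold. The −log10 q-value deposited by the authors was used for no ranking. Signal and summit offset as deposited by the authors were used. No file gives counts, so depth and its precision are unknown. Nearly all regions have 1 width (376 bp in the pooled list), so a summit is mostly an interval's centre. Gene starts came from Ensembl release 115 on WBcel235, within whose chromosome lengths all ce11 regions lay. The ce10 lists were not used.

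Scores used summits within 1 kb of the outermost gene start. Members, lists and rules were chosen with earlier results of these data known. Values in every list are given for members with an IDR region or a pooled percentile of 90 or more and for elongation and eIF5A genes, others by role with the highest, the lowest and those with no region, and up to 3 highest genes of each other list. Of the listed genes, 5 of 6 termination, 4 of 5 mitochondrial and 12 of 14 regulator names were found. Window copies were sought with blastn 2.17.0. Python 3.11.15, numpy 2.4.6, pandas 2.3.3 and matplotlib 3.10.9 were used, and the scoring was tested on simulated data. Alternatives were the distance (500 bp, 2 kb), any transcript's start, the 15000 strongest regions, no summits near small RNA genes, the nearest start only, each replicate alone, the class of eIF5A, the mean, and other top shares.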

Additional observations from a re-analysis of the deposited data

How the results depend on the processing

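The difference of median percentiles between elongation and initiation factors (27.59) kept its direction under every alternative run. It was 96.1 within 500 bp, 13.78 within 2 kb and 95.13 with the 15000 strongest regions. The values of 96.1 and 95.13 are the elongation medians themselves, because the initiation median was 0 in those settings. With one replicate left out the difference ranged from 18.04 to 24.7. With the 15000 strongest regions, members with a pooled region fell from 29 to 19 (27.65% of all genes), and with the stronger part of the IDR list members with an IDR region from 4 to 1 (iff-2; 1.41% of all genes). With a replicate left out, the 906 strongest regions of the remaining replicate stood in for the IDR list, with no reproducibility filter. Without replicate 1, the members near such a region were 1 (eif-2Bgamma, beside 2.45% of all genes). Without replicate 2 they were 3 (eef-2, eif-2Bgamma and iff-2, beside 2.56%). Members in the top 5% of both replicates (3) were 1 (eef-2) without summits near small RNA genes, beside 2.49% of all genes, so no excess over all genes was left there. They were 5 at the top 10% (5.18% of all genes) and 0 at the top 2% (1.23%). With a replicate left out they ranged from 3 to 6, beside 4.997% of all genes in either list. Members with a pooled region were 20 within 500 bp (30.4% of all genes) and 38 within 2 kb (67.7%). The causes were not tested. Of the alternatives run, 26 values stayed within the limits set for no change (1.5 times for counts, the replicate SD of 4.71 for the class difference) and 11 moved. Counts were judged without regard to the shares of all genes. The top 5% of genes could not change with the 15000 strongest regions, which hold all their top regions. Depth is unknown, so weak regions and absent ones cannot be told apart.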

Other observations

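Some members with no region near the start had one elsewhere. The eIF4G gene ifg-1 held a pooled region with a signal of 93.9 (rank 4510) within its body. At egl-45, which had no pooled region within 1 kb of the start, the end had a pooled signal of 105.5 at 139 bp past it, with ranks 4067 and 2831 in replicates 1 and 2. At eif-2Bdelta, 62.7 near the start, a summit at −481 bp from the end had a pooled signal of 116.2, and replicate regions of rank 2254 and rank 2228 had summits at 3337 and 3318 bp from the start, where the pooled one was at 3344 bp. For eef-1B.2 the end had 68.8 at 108 bp past it in the pooled list, 43 bp from the start of hrpu-1. Replicate 1 had a region of rank 14890 there, at 104 bp. The highest replicate 2 region within 500 bp of the end, rank 3654, was elsewhere, at −342 bp.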
